A study of Mus musculus with 14 samples.

Results

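The protein-coding genes of the mitochondrial ribosomal proteins were taken as all those with a mouse symbol of Mrpl (large subunit) or Mrps (small subunit) followed by a number, which gave 78 of the 55487 genes counted, 49 named for the large and 29 for the small subunit. The mitochondrial ribosome translates the few messenger RNAs that mitochondrial DNA encodes, all of them for subunits of the oxidative phosphorylation complexes. Its ribosomal RNAs are made inside the organelle, while its proteins are nuclear gene products that are made on cytosolic ribosomes and imported. Haematopoietic stem cells are commonly described as relying little on oxidative phosphorylation and their committed progeny as relying on it more. The names are historical, since the products of Mrps18a and Mrps30 are known to sit in the large subunit and that of Mrps36 is now assigned to the 2-oxoglutarate dehydrogenase complex. The genes lie on 17 chromosomes, with no more than 11 on any of them.

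RNA was sequenced from 14 libraries of C57BL/6 mouse bone marrow. LSK cells (lineage-negative Sca-1+ c-Kit+, enriched for stem cells) and LK cells (lineage-negative c-Kit+ Sca-1-, myeloid progenitors, written MP(LK) in the labels) were sorted from heterozygous Jak2V617F knock-in marrow, in which the Jak2 mutation of myeloproliferative neoplasm is switched on by Mx1Cre. Per the study's methods, irradiated C57BL/6 recipients carried this marrow, and pI-pC had been given in every such group to induce Mx1Cre. The Mx1 promoter is known to respond to interferon. Recipients were given PBS (3 LSK and 3 LK libraries) or IL-1β at 0.5 µg per dose, 3 doses per week for 16 weeks (2 LSK and 2 LK libraries). Mesenchymal stromal cells (MSC) were grown for 21 days from wild-type marrow and kept in PBS (2 libraries) or 5 ng/ml IL-1β (2 libraries) for 72 h. The labels do not say which libraries came from separate animals or cultures, so p-values measure the spread between these libraries, which may in part be technical.

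Libraries held between 4393233 and 30871055 counted read pairs, with the lowest total in LSK IL-1β library 2. All 8 stem and progenitor markers were called higher in LSK than in LK cells, and all 8 erythroid markers lower. Under IL-1β the summed level of 9 neutrophil lineage markers went from 2205 to 3184 CPM (counts scaled by library size) under PBS to 9917 to 11609 CPM in LSK cells, and from 4416 to 9569 under PBS to 18128 to 21187 CPM in LK cells. The MSC cultures held 10 macrophage markers at a summed 11877 to 15651 CPM under PBS and 31923 to 32826 CPM under IL-1β, against 1419 to 2872 and 3723 to 4247 CPM for 9 mesenchymal markers. These marker levels thus differed between the groups compared, and their part in the results was not tested. In sorted or cultured bulk samples, fewer cells of a type and less RNA per cell cannot be told apart. LSK PBS library 2 stood apart from the other LSK PBS libraries in how its values scattered gene by gene, with 7 of 77 members more than 1 log2 unit from the group's mean, against 0 in library 1 and 3 in library 3.

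Of the 78 genes, 77 were detected and passed the filter on low counts in every comparison. Mrpl53 (chr6:83109040-83109939 in GRCm38) had 0 counts in all 14 libraries. Of its 790 exonic bases, 695 are shared on the same strand with the gene model Gm42688, which held 3 to 107 counts per library. Only 8 of the 78 genes share any exonic base with another gene on their strand, among them Mrps34 (37%), Mrps18c (23.2%) and Mrps24 (15.4%), so the counts of the others rest on exons of their own.

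The members were expressed at moderate and unequal levels, and they kept nearly the same order in every group. Levels between genes were compared as FPKM (counts scaled by library size and by merged exon length), each population being normalized on its own. In LK PBS libraries the mean FPKM ran from 5.2 for Mrpl33 to 152 for Mrpl34, with a median of 25.3, against medians of 564 for cytosolic ribosomal protein genes and 73.6 for nuclear oxidative phosphorylation subunits. The highest levels over all groups belonged to Mrpl34, Mrpl12 (the stalk protein related to bacterial L7/L12), Mrpl18, Mrps21 and Mrpl28, and the lowest to Mrpl32, Mrpl33, Mrps10, Mrps35 and Mrpl48. Over the 77 genes, Spearman's rho between the mean FPKM of any pair of groups was 0.801 to 0.987, lowest between LSK IL-1β and MSC PBS and highest between MSC PBS and MSC IL-1β. Genes share their length between groups, which raises such a value.

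By library, the median FPKM of the members was 22.7 to 26.8 in LK PBS, 24.0 to 24.7 in LK IL-1β, 19.0 and 27.9 in LSK IL-1β, 13 to 16.8 in LSK PBS, 12.7 and 13.4 in MSC PBS, and 10.4 and 10.6 in MSC IL-1β. Each population was normalized on its own, so orders between populations share no common scale. As a share of all counts, the members made up 0.3004% to 0.3639% in LSK PBS and 0.2649% and 0.284% in MSC PBS, without overlap. In median FPKM the LK and LSK IL-1β groups overlapped, as did LSK PBS and MSC PBS. LSK PBS lay below LSK IL-1β and LK, and MSC IL-1β lay below all other groups. Mrpl12 shows the pattern in 1 gene, at 69.1 ± 15.3 FPKM in LSK PBS (SD, n = 3), 153 ± 61.1 in LSK IL-1β (n = 2), 137 ± 11.9 in LK PBS (n = 3) and 134 ± 9.49 in LK IL-1β (n = 2). In MSC it stood at 45.6 ± 10.1 FPKM under PBS and 33.0 ± 1.13 under IL-1β (n = 2 each). Mrpl34 had the highest mean in all 6 groups, but its SD in LSK PBS, 123 FPKM around a mean of 159.7, was nearly as large as the mean.

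**Figure D1:**
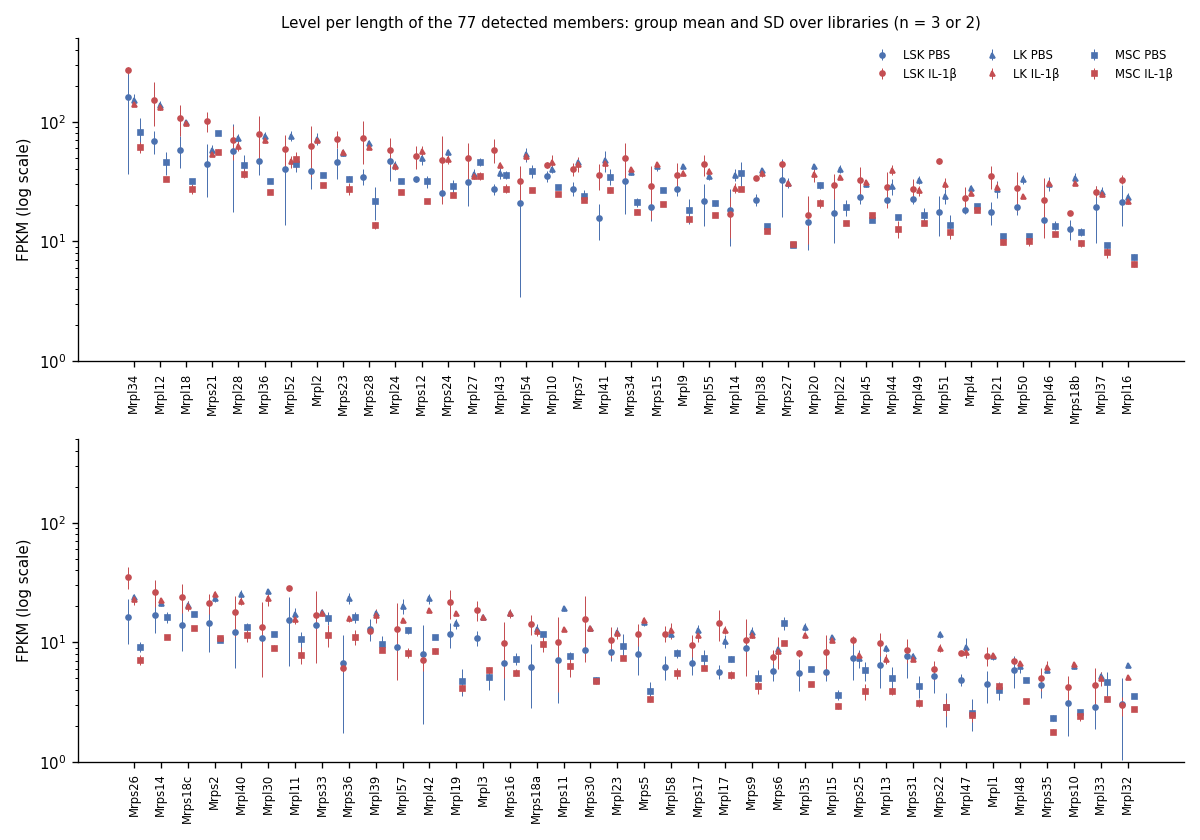
Mean FPKM (log scale) with SD over libraries of the 77 detected genes, ordered by the mean over all groups, for LSK (circles), LK (triangles) and MSC (squares) under PBS (blue) or IL-1β (red). Levels run from a few FPKM to 271 FPKM for Mrpl34 in LSK IL-1β, and the order of genes is similar in all groups. Many error bars are wide in LSK PBS or in LSK IL-1β. The SD of Mrpl12 is 15.3 FPKM in LSK PBS and 61.1 in LSK IL-1β, and that of Mrpl34 is 123 and 18.3.

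Promoters of such genes are known for binding sites of nuclear respiratory factor 1 (NRF1), of ETS family factors such as GABPA, and of YY1, and Myc binds the E-box. RefSeq promoter windows (GRCm38.p6, 250 bases before to 50 after the annotated start, 300 bases each) matched 69 of the 78 genes, in 75 windows. Counted by gene, since a gene can have several windows, and on either strand, the NRF1 motif GCGCANGCG was in a window of 16 of 69 genes (23.2%) against 7.03% of all 27025 genes in the table, and the ETS motif CCGGAAGT in 12 (17.4%) against 4.31%. The YY1 motif AAGATGGCG was in 8 (11.6%) against 1.64%, and the E-box CACGTG in 5 (7.25%) against 8.09%, near the share of all genes. In all, 36 genes (52.2%) held at least 1 of the 4, against 18.4% of all genes, with matches overlapping each other in 4 member windows. These are matches of letters and say nothing about binding in these cells. The 120 bases before the start follow for 7 of the members that the comparisons name and that carry a match there, chosen to show each motif, 5′ to 3′ on the gene's strand with the matches in capitals: NRF1 for Mrpl12, Mrpl17 (which holds 2), Mrps21 and Mrpl57, ETS for Mrpl51, YY1 for Mrps11 and the E-box for Mrpl20.
Mrpl12 (chr11:120484517-120484636, plus strand): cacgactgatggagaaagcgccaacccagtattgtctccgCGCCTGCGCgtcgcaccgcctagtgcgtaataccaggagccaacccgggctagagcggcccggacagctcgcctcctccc
Mrpl17 (chr7:105811088-105811207, minus strand): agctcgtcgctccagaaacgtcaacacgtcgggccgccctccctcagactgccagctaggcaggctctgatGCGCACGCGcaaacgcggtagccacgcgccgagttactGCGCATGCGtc
Mrps21 (chr3:95871515-95871634, minus strand): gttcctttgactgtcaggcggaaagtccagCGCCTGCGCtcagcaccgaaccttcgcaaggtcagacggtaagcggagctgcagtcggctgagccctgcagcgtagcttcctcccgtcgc
Mrpl57 (chr14:57826119-57826238, plus strand): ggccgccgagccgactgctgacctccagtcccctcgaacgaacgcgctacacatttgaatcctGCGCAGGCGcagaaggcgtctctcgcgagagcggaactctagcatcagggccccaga
Mrpl51 (chr6:125192080-125192199, plus strand): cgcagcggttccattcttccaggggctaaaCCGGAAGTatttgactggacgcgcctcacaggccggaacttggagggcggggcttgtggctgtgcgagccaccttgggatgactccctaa
Mrps11 (chr7:78783011-78783130, plus strand): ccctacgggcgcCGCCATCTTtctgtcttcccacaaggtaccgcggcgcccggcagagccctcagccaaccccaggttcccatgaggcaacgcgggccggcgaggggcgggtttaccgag
Mrpl20 (chr4:155802758-155802877, plus strand): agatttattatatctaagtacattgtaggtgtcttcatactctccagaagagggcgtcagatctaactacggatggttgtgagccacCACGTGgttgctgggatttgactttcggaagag

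LSK against LK cells under PBS asked how the stem cell-enriched compartment differs from myeloid progenitors carrying the same Jak2 mutation. About as many mitochondrial ribosomal protein genes were lower in LSK cells as did not pass the test, in both subunits. Of 77 genes tested, 40 were called lower (adjusted p under 0.05 and a log2 change beyond 0.5) and 0 higher, where 12.8% of all genes tested were called lower and 18.4% higher. The 40 comprised 26 of 48 large and 14 of 29 small subunit genes. At an unadjusted p under 0.05 the counts were 50 lower and 0 higher, where 19.2% and 24% of all genes passed in those directions, and DESeq2 and limma-voom likewise called 0 higher. The members' median log2 change was -0.73, where that of all genes was 0.04, and 74 of 77 changes were negative. In 55 genes all 3 LSK libraries lay below all 3 LK libraries, where this held for 24.2% of all genes, and in 0 genes they lay above, where it held for 26.2%.

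Mrps24, a relative of bacterial S3 near the mRNA entry site (chr11:5703983-5715680), had the smallest p. Its LSK libraries held 34.5, 38.4 and 40.8 CPM and its LK libraries 91.1, 83.0 and 83.4 CPM. The groups did not overlap, and the level in LSK cells was 2.26-fold lower (log2 -1.18 ± 0.16 SE, adjusted p = 0.0011). Mrps18b, one of 3 mammalian relatives of bacterial S18 (chr17:35910379-35916389), held 28.0, 21.5 and 31.5 CPM in LSK and 78.0, 77.1 and 65.9 CPM in LK cells. It was 2.73-fold lower (log2 -1.45 ± 0.20 SE, adjusted p = 0.00123), again with no overlap. Its relatives Mrps18a (log2 -1.09, adjusted p = 0.0695) and Mrps18c (log2 -0.59, adjusted p = 0.172) were not called, although all LSK libraries lay below all LK libraries for both.

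Among large subunit genes, Mrpl41, which has no bacterial counterpart (chr2:24974117-24975098), held 10.1, 12.8 and 18.9 CPM in LSK and 52.9, 43.7 and 34.9 CPM in LK cells, a 3.13-fold difference (adjusted p = 0.00312). Mrpl20 was 2.98-fold lower (adjusted p = 0.00343), with LSK libraries at 19.4, 18.1 and 36.1 CPM and LK libraries at 73.2, 69.5 and 77.2 CPM. Mrpl12 held 83.3, 127 and 112 CPM in LSK and 241, 205 and 210.1 CPM in LK cells (2.04-fold, adjusted p = 0.00373). For these 3 genes every LSK library lay below every LK library. The other 10 of the 15 called genes with the smallest p were Mrpl15, Mrpl38, Mrpl35, Mrps15, Mrps22, Mrps28, Mrps17, Mrpl17, Mrpl46 and Mrps7, at log2 changes from -1.31 (Mrpl35) to -0.76 (Mrps7). Mrps12, which forms part of the decoding centre, was called at -0.63 and Mrps30 at -0.63.

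The largest change belonged to Mrps36, at log2 -1.82 ± 0.60 SE (adjusted p = 0.0467), but LSK PBS library 2 held 1.5 CPM where the other LSK libraries held 10.8 and 13.7 and LK libraries 27.1 to 33.9. The 3 highest changes were those of Mrpl34 (0.03), Mrps27 (0.05) and Mrpl24 (0.08), none of them called. For Mrpl34 the same LSK library held 184 CPM where the others held 47.8 and 62.4. Mrpl11 (-0.21) and Mrpl37 (-0.46) were not called either, with LSK library 2 above the LK libraries for both. Without LSK PBS library 2, 59 genes were called lower, and without LK PBS library 1, 19 were. The share of all genes called was not taken in those fits.

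**Figure D2:**
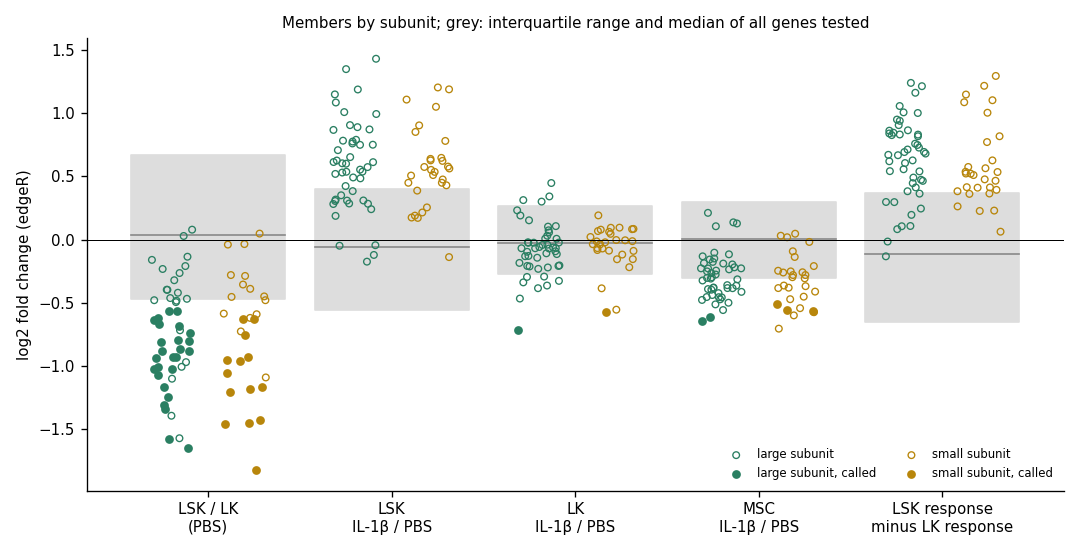
log2 fold changes of the 77 genes (points, split by subunit name) in each comparison, filled where called. Grey bands give the interquartile range of all genes tested and the grey line their median. The filled points are 40 in LSK against LK, all below 0, 2 in LK IL-1β, 5 in MSC IL-1β and 0 in the other comparisons.

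IL-1β against PBS in LSK cells asked whether chronic exposure to the cytokine moves these genes in the mutant stem cell-enriched compartment. No member passed the test in either direction with edgeR, where 0.32% of all genes were called higher and 0.312% lower, although the estimates leaned to higher levels under IL-1β. This does not show that the levels were the same. At an unadjusted p under 0.05 the counts were 22 higher and 0 lower, where 8.01% of all genes passed in the higher direction. DESeq2 called 8 higher and limma-voom 0, and fitting the 10 sorted-cell libraries together called 15 higher. Shares of all genes called were not taken in these other fits, so their counts cannot be set against all genes. The median log2 change was 0.56, where that of all genes was -0.06, and 72 of 77 were positive. Both IL-1β libraries lay above all PBS libraries for 31 genes, where this held for 18.2% of all genes, and below them for 0, where it held for 21.4%. The size of the median rested on LSK IL-1β library 2, the shallowest, being 0.28 without it and 0.83 without IL-1β library 1.

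Mrpl17 had the smallest p, with 38.7, 41.0 and 49.3 CPM under PBS and 87.2 and 132 CPM under IL-1β. The groups did not overlap, but the 2.55-fold difference (log2 1.35 ± 0.27 SE) had an adjusted p of 0.0635. Mrpl51 held 59.3, 101 and 52.5 CPM under PBS and 184 and 199 CPM under IL-1β (2.70-fold, adjusted p = 0.0727). Mrpl12 held 80.1, 126 and 111 CPM under PBS and 169 and 301 CPM under IL-1β (2.22-fold, adjusted p = 0.115). For these 3 genes every IL-1β library was above every PBS library, and for Mrpl12 the 2 IL-1β libraries were themselves far apart. Mrps21 (log2 1.20, adjusted p = 0.147) and Mrps18a (1.19, adjusted p = 0.225) had estimates of like size. Mrpl11 (0.89), Mrps30 (0.85), Mrps18c (0.78), Mrps12 (0.64), Mrps18b (0.45), Mrps27 (0.43) and Mrpl37 (0.42) had adjusted p of 0.232 to 0.558.

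The 3 lowest estimates were those of Mrpl42 (-0.17), Mrps36 (-0.14) and Mrpl14 (-0.12). LSK PBS library 2 was low for each, at 6.34 CPM where the other PBS libraries held 32.3 and 49.4 for Mrpl42, and the 2 IL-1β libraries lay within the PBS range for all 3 genes. Of the 40 genes called lower in LSK than in LK cells, 39 had a positive estimate under IL-1β in LSK cells. Among all 77 members, 72 had one, so the 39 are near the share of the members as a whole. The 3 LSK PBS libraries serve as the lower group in one comparison and as the control in the other, so the pair of results is not independent.

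To place the libraries on 1 scale, all 10 LSK and LK libraries were normalized together and each gene was set against its mean in LK PBS. The members' median log2 ratio was -0.93, -0.76 and -0.57 in the 3 LSK PBS libraries, -0.45 and 0.14 in the 2 LSK IL-1β libraries, 0.09, -0.09 and -0.01 in LK PBS, and -0.11 and -0.01 in LK IL-1β. LSK PBS libraries were thus below every LK library, LSK IL-1β library 2 was above every LK library, and LSK IL-1β library 1 lay between. The interquartile range of the 77 genes within a library was wide in LSK PBS library 2 (-1.56 to -0.12) and narrow in LK PBS library 1 (0.05 to 0.14).

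**Figure D3:**
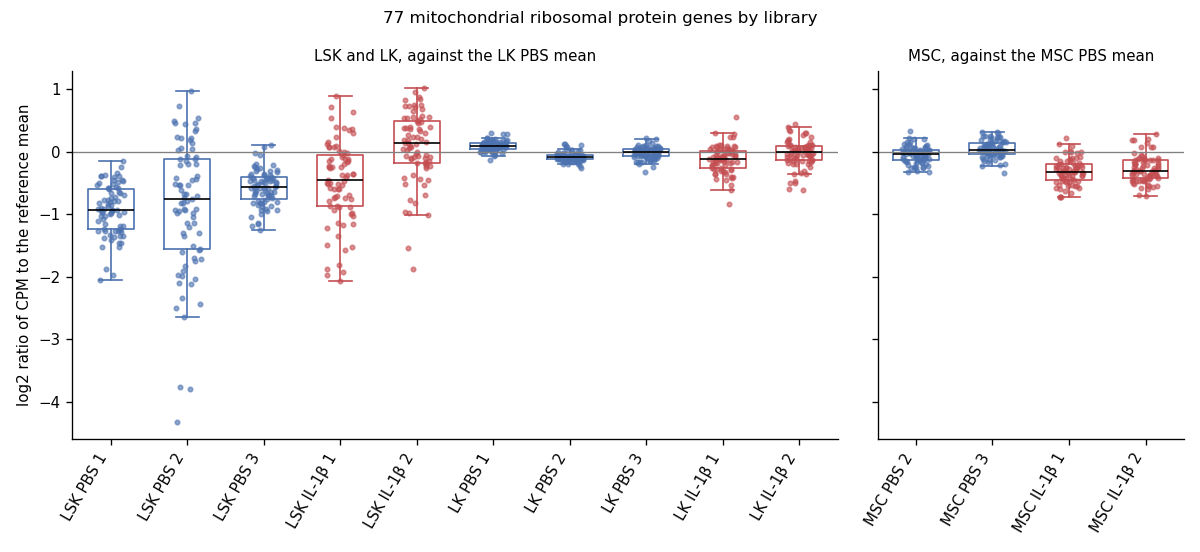
log2 ratio of CPM to the reference mean for each of the 77 genes (points) in each library, against LK PBS for the 10 LSK and LK libraries and against MSC PBS for the 4 MSC libraries. Boxes give the quartiles and whiskers reach the last value within 1.5 interquartile ranges. LSK PBS medians are -0.93 to -0.57, and LSK IL-1β medians -0.45 and 0.14.

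Whether IL-1β acted differently on the members in the 2 sorted populations was tested as an interaction in 1 fit. No gene of the 77 passed with edgeR, where 0.00723% of all genes were called higher and 0.0217% lower. At an unadjusted p under 0.05, 18 responses were higher in LSK cells and 0 lower, where 4.68% and 9.54% of all genes were, and DESeq2 called 2 higher and limma-voom 0. The median difference was 0.58 on the log2 scale, where that of all genes was -0.12, and 75 of 77 were positive. The highest were Mrps21 (1.30 ± 0.43 SE, adjusted p = 0.239), Mrpl52 (1.24, adjusted p = 0.353) and Mrps18a (1.22, adjusted p = 0.356), and the lowest Mrpl44 (-0.13), Mrpl39 (-0.02) and Mrps35 (0.06). Mrpl12 differed by 1.16 ± 0.35 SE (adjusted p = 0.204).

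In LK cells under IL-1β, 2 members were called lower and 0 higher, where 2.57% of all genes were called lower and 6.77% higher. The count called lower is near the share of all genes and is no result about the members as a group. The median log2 change was -0.06 against -0.03 over all genes, and 24 of 77 were positive. At an unadjusted p under 0.05 there were 4 higher and 11 lower, where 14% and 10.8% of all genes were. IL-1β libraries lay below all PBS libraries for 20 genes (22.2% of all genes) and above them for 6 (23.5% of all genes). Counts of both kinds were read against those shares of all genes. DESeq2 also called 2 lower and limma-voom 1.

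Mrpl52, a large subunit protein found only in mitochondria (chr14:54426909-54429756), held 94.2, 77.7 and 81.5 CPM under PBS and 47.4 and 55.8 CPM under IL-1β. It fell 1.64-fold (log2 -0.71 ± 0.13 SE, adjusted p = 0.0146). Mrps11, a relative of bacterial S11, held 43.5, 39.8 and 41.9 CPM under PBS and 28.8 and 27.3 CPM under IL-1β, and fell 1.49-fold (log2 -0.58 ± 0.13 SE, adjusted p = 0.029). Neither gene's groups overlapped. Either IL-1β library or LK PBS library 1 left out brought the number called lower to 0. Mrps36 (-0.55, adjusted p = 0.0659) was next, and the 3 highest estimates were those of Mrpl44 (0.45, adjusted p = 0.113), Mrpl51 (0.34, adjusted p = 0.154) and Mrpl17 (0.31, adjusted p = 0.166). Mrpl12 stood at -0.04 ± 0.11 SE, with 232, 199.7 and 201 CPM under PBS and 194 and 215 CPM under IL-1β. In LK cells 6 of 9 neutrophil lineage markers rose and 5 of 8 erythroid markers fell in the same libraries, and their part in these values was not tested.

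In MSC cultures under IL-1β, 5 members were called lower and 0 higher, where 4.31% of all genes were called lower and 7.14% higher. The count called lower is near the share of all genes and is by itself no result about the members as a group. The shift of the whole set was small, with a median log2 change of -0.31 against 0.00 over all genes, and 7 of 77 positive. At an unadjusted p under 0.05 there were 33 lower and 0 higher, where 14.1% and 15.9% of all genes were, and DESeq2 called 4 and limma-voom 7 lower, both with 0 higher. Both IL-1β libraries lay below both PBS libraries for 59 genes, where this held for 29.8% of all genes. They lay above for 2, where it held for 31.3%. In 23 genes every IL-1β library lay above its PBS libraries in LSK and below them in MSC, where this held for 7.76% of all genes tested in both. The opposite order held for 0 members and 9.37% of all genes, and the order of higher in LK and lower in MSC for 4 members and 5.41%. The difference between these responses was not tested. Each alone, 31 members lay above in LSK and 59 below in MSC, and a link beyond these counts was not tested. With 2 libraries against 2, the called genes depended on single libraries: 0 were called without either IL-1β library and 19 without MSC PBS replicate 2.

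Mrpl48 (chr7:100545751-100608301) held 39.2 and 40.2 CPM under PBS and 25.5 and 26.6 CPM under IL-1β, a 1.52-fold fall (log2 -0.61 ± 0.11 SE, adjusted p = 0.0266). Mrps21, a relative of bacterial S21, held 58.7 and 59.6 CPM under PBS and 40.4 and 42.9 CPM under IL-1β (1.42-fold, adjusted p = 0.0336). Mrpl57 held 35.5 and 39.2 CPM under PBS and 22.6 and 25.6 CPM under IL-1β (1.56-fold, adjusted p = 0.034). Replicates of these 3 genes were close and the groups clearly apart. Mrps14 (log2 -0.56, adjusted p = 0.0399) and Mrps12 (-0.56, adjusted p = 0.04997) completed the called set, Mrps12 at the edge of the threshold. Mrps28 had the lowest estimate (-0.70) but was not called (adjusted p = 0.118), its PBS libraries holding 13.3 and 20.8 CPM. Mrpl12 was lower by estimate (-0.48 ± 0.17 SE, adjusted p = 0.121), and the highest estimates were Mrpl3 (0.21), Mrpl45 (0.14) and Mrpl52 (0.13). In the same cultures 5 of 10 cell cycle genes were called lower, their summed level being 680.3 and 898.9 CPM under PBS and 331.8 and 314.8 CPM under IL-1β, and 6 of 10 macrophage markers rose. Their part in the members' values was not tested.

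**Figure D4:**
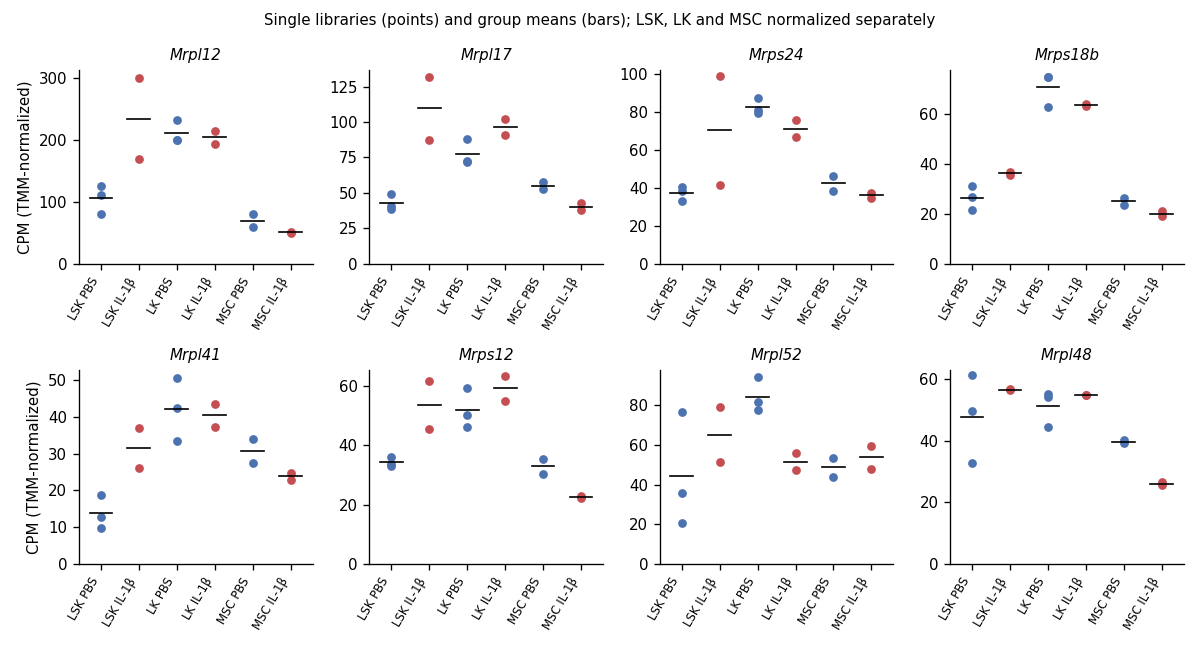
CPM of 8 genes in single libraries (points) with group means (bars), blue for PBS and red for IL-1β, each population normalized on its own and each axis starting at 0. Mrps24, Mrps18b, Mrpl41 and Mrpl12 are low in LSK PBS relative to LK, Mrpl52 is lower in LK IL-1β than in LK PBS, and Mrpl48 is lower in MSC IL-1β than in MSC PBS.

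In LSK against LK cells, where 12.8% of all genes were called lower, part of the other genes of the pathway were called lower too. Of 5 mitochondrial ribosomal proteins with other names, 4 were called lower: Ptcd3 (log2 -1.19, adjusted p = 0.00134), Chchd1 (-1.18), Gadd45gip1 (-0.82) and Aurkaip1 (-0.64), while Dap3 was not (-0.39, adjusted p = 0.388). Of 14 translation factors, 5 were lower, among them the elongation factors Gfm1 (-0.97, adjusted p = 0.00129) and Tufm (-0.79, adjusted p = 0.00286). Of 26 assembly factors, 7 were lower, with Mpv17l2 at -1.51 and the rRNA methyltransferase Mrm3 at -1.07. Of 17 mitochondrial aminoacyl-tRNA synthetases, 5 were lower, with the tyrosyl enzyme Yars2 at -1.39. In these 4 lists, 0 genes were called higher. Nuclear oxidative phosphorylation subunits had 33 of 78 lower and 0 higher (median -0.63), cytosolic ribosomal proteins 7 of 81 lower and 0 higher (median -0.43), and cell cycle genes 2 of 10 lower (median -0.46).

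Under IL-1β, not one of the 4 lists of mitochondrial translation genes held a called gene in LSK, LK or MSC by edgeR. In LSK cells unadjusted p values under 0.05 (8.01% of all genes higher) numbered 2 of 5 for the other ribosomal proteins, 2 of 14 for translation factors, 4 of 26 for assembly factors and 3 of 17 for synthetases, all of them higher. Nuclear oxidative phosphorylation subunits had a median of 0.73 in LSK cells with 0 of 78 called, -0.08 in LK with 1 of 77 lower, and -0.37 in MSC with 25 of 79 lower. Cytosolic ribosomal proteins had medians of 0.35, -0.17 and -0.50, with 0, 0 and 16 of 81 called lower. Of all genes tested, 0.312% were called lower in LSK, 2.57% in LK and 4.31% in MSC.

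**Figure D5:**
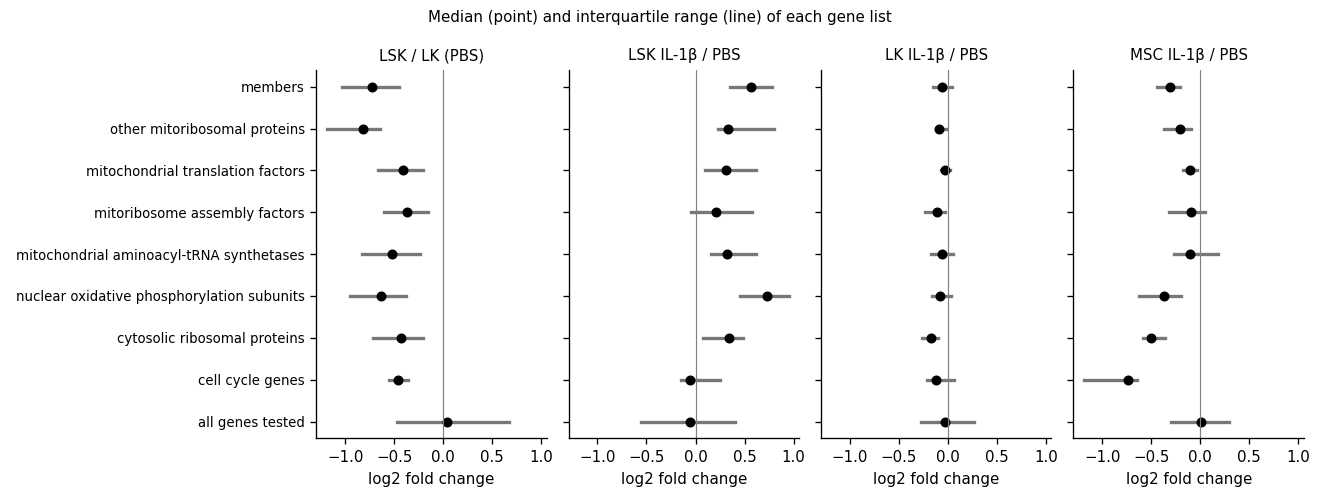
Median (point) and interquartile range (line) of the log2 fold change of each gene list in 4 comparisons on 1 shared axis. The members are at -0.73 in LSK against LK, 0.56 in LSK IL-1β, -0.06 in LK IL-1β and -0.31 in MSC IL-1β, with oxidative phosphorylation subunits at -0.63, 0.73, -0.08 and -0.37.

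The mitochondrially encoded mRNAs, which the mitochondrial ribosome translates, did not share the lean of the members in LSK cells under IL-1β. Their median log2 change in LSK cells was -2.09 over 8 tested genes with 0 called. In 5 the unadjusted p was under 0.05, all lower, where 10.5% of all genes passed in that direction. The median was also below 0 in LK under IL-1β (-0.87, 0 of 10 positive) and in MSC under IL-1β (-1.15, 0 of 11 positive). The unadjusted p was under 0.05 in 0 of 10 in LK and in 8 of 11 in MSC, all lower. Of all genes, 10.8% and 14.1% passed in that direction. Summed over these mRNAs, LK PBS libraries held 6226, 12101 and 5135 CPM and LK IL-1β libraries 3905 and 4835 CPM. In LSK against LK cells the median was -1.68, with 1 of 10 positive. The summed level of these mRNAs was 2447, 795.9 and 4799 CPM in the LSK PBS libraries and 599.8 and 643.8 CPM in the LSK IL-1β libraries. The PBS libraries differed among themselves by several times, and PBS library 2 stood near the IL-1β libraries. In MSC, mt-Nd1 (-1.15, adjusted p = 0.0258), mt-Cytb (-1.55, adjusted p = 0.0256) and mt-Co3 (-1.84, adjusted p = 0.0324) fell, and in LSK against LK cells mt-Nd2 was lower (-2.11, adjusted p = 0.03). Among 17 tested regulators of mitochondrial biogenesis and transcription, Mycn, a Myc family transcription factor, was higher in LSK than in LK cells (3.52, adjusted p = 9.63e-05) and lower under IL-1β in LSK cells (-1.95, adjusted p = 0.0207). Gabpb1, the partner of GABPA, was higher in LSK than in LK cells (1.10, adjusted p = 0.00296), and Myc fell in MSC under IL-1β (-0.97, adjusted p = 0.0171).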

How the data were processed

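Gene counts of the LSK, LK and MSC libraries were used as deposited. The authors made these raw counts, per the labels and file headers, with fastp 0.20.0, HISAT2 2.0.1, SAMtools 1.10 and featureCounts 2.0.2 (read pairs, reversely stranded, Ensembl annotation of GRCm38), from rRNA-depleted RNA. The study's methods also name another counter, and the headers were followed. Gene length (merged exons) is the deposited column. Symbols were matched for 55227 of 55487 gene IDs. 5 pseudogenes with Mrpl or Mrps symbols were left out. The members and gene lists were chosen with earlier results of these data known.

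Each comparison was fitted across all genes in edgeR 4.0.16 (R 4.3.3, filterByExpr, TMM factors, quasi-likelihood F-test, 2-sided) on its own libraries, with Benjamini-Hochberg adjustment over all genes tested. Genes were called at an adjusted p under 0.05 and a log2 change beyond 0.5. Shares of all genes called are those of this main fit and were not taken under the alternatives. CPM uses the TMM factors of its comparison, so LSK PBS values differ slightly between comparisons. Alternatives were DESeq2 1.42.0, limma-voom (limma 3.58.1), RLE and upper-quartile factors, other filters (none, or 10 reads in 2 libraries), a joint fit, a replicate block and leaving out each library. Fits were tested on simulated data, where those of LSK IL-1β against PBS and of the difference of responses recovered almost none of the changes put in, so the absence of calls there does not show equal levels. Deviations of LSK and LK libraries of the same number correlated at 0.211, 0.1279 and 0.4715 under PBS and 0.1002 under IL-1β. LSK 2 with LK 1 (0.162) and LSK 1 with LK 2 (0.1244) reached values similar to the lower of these. The other PBS pairs of unlike number, all with a library 3, ran from -0.3812 to -0.2111, where LSK 3 with LK 3 had the 0.4715. The labels name no shared animal, so pairing by number is not established. The number was used as a block only in the alternative fit. PBS and IL-1β libraries of the same number correlated at -0.102 to 0.126. Named genes were those called (up to 15 of the smallest p), the 3 highest and lowest changes, the 5 highest and lowest FPKM, and 9 fixed names, plus, per list, up to 4 called genes and the extremes. 1 marker list is not reported here. Promoter windows were RefSeq's (GRCm38.p6). Depth limits precision for genes of few counts.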

Additional observations from a re-analysis of the deposited data

Results flagged for a closer look

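In 23 of 77 genes every LSK IL-1β library lay above its PBS libraries while every MSC IL-1β library lay below its own, where this held for 7.76% of all genes tested in both. In 4 genes the same held for LK against MSC, where it held for 5.41% of all genes. The opposite order, lower in LSK and higher in MSC, was seen in 0 genes, where it held for 9.37%. The difference between the responses of marrow-sorted cells and cultures was not tested. Each alone, 31 of 77 genes lay above in LSK and 59 below in MSC, and a link beyond these counts was not tested. Among the 23, the genes given by the rule for named genes were Mrpl17 (log2 change 1.35 in LSK and -0.46 in MSC), Mrps21 (1.20 and -0.51), Mrps18a (1.19 and -0.28), Mrpl41 (1.19 and -0.38), Mrpl12 (1.15 and -0.48), Mrps28 (1.05 and -0.70) and Mrps24 (0.90 and -0.25). The others were Mrpl11 (0.89 and -0.45), Mrpl18 (0.87 and -0.24), Mrps18c (0.78 and -0.38), Mrps12 (0.64 and -0.56), Mrpl38 (0.61 and -0.13), Mrpl35 (0.54 and -0.42) and Mrps18b (0.45 and -0.31). None of these 14 was called in LSK cells, and Mrps21 and Mrps12 were called in MSC. Dose, route, duration, genotype and culture differ between these experiments and cannot be told apart from cell type.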

How the results depend on the processing

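The 2 libraries in each IL-1β arm limit the IL-1β comparisons, where leaving 1 out assumes that the lone library varies like the other group. Members called higher in LSK under IL-1β numbered 8 with DESeq2, 9 without the filter on low counts, 15 in the joint fit, and 0 to 6 without single libraries (6 without PBS replicate 2, 1 without PBS replicate 3). Members called lower in LK numbered 1 with limma-voom, 0 in the joint fit and 0 to 3 without single libraries, with 0 to 1 called higher. Members called lower in MSC numbered 10 with upper-quartile factors, 8 without the filter and 0 to 19 without single libraries. Members called lower in LSK against LK numbered 19 to 59 without single libraries. For the difference of responses, 2 were called higher with DESeq2, 8 without the filter and 0 to 7 without single libraries (7 without LSK PBS replicate 2, 4 without LSK IL-1β replicate 1), and its median was 0.28 to 0.88. Medians kept their sign in every setting run. Shares of all genes called were not taken under these settings, so the counts show how the calls moved and nothing particular to the members. The cause of these shifts was not tested.

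With the replicate block, 46 members were called lower in LSK against LK and 0 for the difference of responses. The counts called in the other direction stayed at 0, and pairing by number is not established. PBS and IL-1β libraries share only a number, and there the block called 10 higher in LSK and 1 higher and 2 lower in LK. No share of all genes called was taken under the block either. Under the block, Mrpl14 (0.32), Mrpl42 (0.81) and Mrps36 (0.87) turned positive in LSK IL-1β, Mrpl34 (-0.238) and Mrps27 (-0.056) negative in LSK against LK, and Mrpl39 (0.015) positive in the difference. For MSC no replicate block could be fitted, because its arms share only number 2.

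Of 614 values of named genes under alternatives, 40 turned their direction, all in genes not called. With limma-voom, Mrpl42 (0.15) and Mrps36 (0.25) turned in LSK IL-1β and Mrpl34 (-0.23) and Mrps27 (-0.06) in LSK against LK, and with at least 10 reads in 2 libraries Mrpl34 (-0.034) and Mrps27 (-0.013). Mrpl39 turned in the difference with DESeq2 (0.045), limma-voom (0.009), RLE (0.047), upper-quartile factors (0.065) and no filter (0.10). Without single libraries, the estimates in LSK IL-1β ran from -0.534 to 0.273 for Mrpl14, -0.629 to 0.429 for Mrpl42 and -0.613 to 0.375 for Mrps36. Those in LSK against LK ran from -0.806 to 0.304 for Mrpl34, -0.440 to 0.186 for Mrps27 and -0.159 to 0.230 for Mrpl24. Those in MSC ran from -0.005 to 0.447 for Mrpl3 and -0.027 to 0.286 for Mrpl52, and those in the difference from -0.167 to 0.160 for Mrpl39, -0.186 to 0.323 for Mrps35 and -0.517 to 0.220 for Mrpl44.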

Other observations

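Counts and medians are given for members numbered like a bacterial ribosomal protein (Mrpl36 and below, Mrps21 and below, 44 tested) and those numbered above it, mostly without a bacterial counterpart (33 tested). This split was made after the values were seen. In LSK against LK cells 26 of 44 and 14 of 33 were called lower, with median log2 changes of -0.75 and -0.63. Under IL-1β the medians were 0.58 and 0.53 in LSK, -0.06 and -0.06 in LK, and -0.31 and -0.28 in MSC, with 3 and 2 called lower in MSC. The difference between the 2 kinds was not tested.

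In LSK cells the summed level of 8 stem and progenitor markers was 1493 to 1931 CPM under PBS and 839.4 to 950.1 CPM under IL-1β, with 3 of 8 called lower. In LK cells it was 457 to 629.5 CPM under PBS and 437 to 519.8 CPM under IL-1β, with 1 of 8 called lower. In MSC it was 105 to 118 CPM under PBS and 130.2 to 131 CPM under IL-1β. Of the 4 tested in MSC, Kit was called lower (-2.473) and Cd34 had a negative estimate (-1.095). Ly6a (0.269) and Procr (0.405) had positive estimates and were not called. In LSK cells megakaryocyte markers stood at 406 to 508 CPM under PBS and 548 to 697 CPM under IL-1β. Of the 4 tested, only Itga2b had a positive log2 change (0.75), and 3 had a negative one, among them Vwf (-1.02). Macrophage markers stood at 335 to 388 and 238.5 to 263 CPM in LSK cells, and endothelial markers at 118 to 151 and 72.4 to 95.2 CPM. In each of these 3 lists 0 were called.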
